A study of Mus musculus with 2 samples.

Results

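The antiviral interferon effectors described here are 10 mouse genes, Ifit1, Ifit2, Ifit3, Isg15, Mx1, Mx2, Rsad2, Oasl1, Oasl2 and Usp18. They were taken by gene symbol and are 10 of the 20002 genes with values. All 10 reached 10 scaled reads in at least 1 library, the minimum for a gene to be counted, as did 17469 of the 20002 genes. In whole kidney, 9 of the 10 were at least 2-fold higher in the CKO-labelled library than in the control library, beside 13.4% of all genes tested. At least 4-fold higher were 7 of the 10, beside 4.29% of all genes tested, and 0 were at least 2-fold lower, beside 5.35%. The number at 4-fold depends on the scaling: it was 9 with equal totals and for the values as deposited, and 2 when these were scaled. The share of all genes at 4-fold was not taken under these scalings. Rsad2 was the exception, with scaled reads that were nearly equal in both libraries.

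The RNA-seq compared kidneys of C57BL/6J mice given a knockdown of Regnase-2, aimed at the proximal tubule, with kidneys of control mice. Regnase-2 is a ribonuclease that degrades mRNAs of inflammatory proteins. Each group had 1 library, so no difference has a replicate check, and the sources used here do not say whether mice were pooled. The group labelled CKO, for conditional knockout, received adeno-associated virus serotype 9 (AAV9) carrying a short hairpin RNA against Regnase-2 by tail vein at 11 weeks of age. Control mice also received AAV9, described as an empty vector in the AAV9 methods and as control shRNA in the sequencing methods. Kidneys were taken at 14 weeks according to the sequencing methods and at 16 weeks according to the AAV9 methods. The labels name no further treatment for mice of these groups. Although the labels speak of a proximal tubule knockout, the methods describe a knockdown by a virus said to enter proximal tubules by preference, and no Cre driver is named. The labels name whole kidney as the tissue and the methods the left kidney. The sex of these mice is not given in the sources used here. Libraries were made from poly(A) RNA with a stranded kit and read at an average of 100 bases.

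The deposited values are whole numbers that start at 35 in the control column and at 51 in the CKO column. Every whole number from 1 to 60 above a floor of 34 and 50 was in use in either column, and the values were taken as reads plus these constants, which is an inference. After the floors were subtracted, 38851231 reads remained in the control library and 43588721 in the CKO-labelled library, and the median gene had 284 and 513.5 reads. The reads of the CKO-labelled library were scaled by 0.667, the median gene ratio between control and CKO, and log2 ratios had a pseudocount of 1. Intervals given below are exact 95% intervals (Clopper-Pearson for ratios and shares, Poisson for levels) that cover counting error only. Of the genes tested, 2334 were higher by 2-fold or more in the CKO-labelled library and 934 were lower, so that 71.4% of these were higher. When both libraries were given equal totals, the numbers were 3870 and 437 (89.9% higher), and the median log2 ratio of all genes tested moved from 0.022 to 0.44. For the values as deposited it was 0.57, so the sign of a difference within these shifts depends on the scaling.

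Zc3h12b, the gene of Regnase-2, had 47 control reads and 59 in the CKO-labelled library. Its log2 ratio was -0.25, with an interval from -0.83 to 0.33, and it was 0.16 with equal totals and 0.42 for the values as deposited. The interval includes 0, so that the reads of the target gene do not check the label. The tissue label was checked with 7 proximal tubule markers, each with at least 19097 reads in either library. Slc34a1, a phosphate transporter of the proximal tubule and the most abundant of the 7, had 147064 and 98124 reads. The summed level of the 7 markers was 10423 reads per 1000000 reads (RPM) in the control library and 7516 in the CKO-labelled library. Their median log2 ratio was -0.91 (-0.49 with equal totals, -0.32 for the values as deposited), from -1.62 for Slc22a6 to 0.41 for Slc5a12. In bulk kidney, fewer cells of a type and less RNA per cell cannot be told apart.

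Type I and type III interferons bind receptors on nearly all and on mainly epithelial cells, respectively, and signal through JAK1 and TYK2 to transcription factors that include STAT2 and IRF9. These bind the interferon-stimulated response element (ISRE) in promoters and switch on genes whose products block virus entry, translation, replication and release. Tubular cells, endothelium and leukocytes of the kidney can all run this programme, and nucleic acids released by injured cells are known to set it off.

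Promoter sequences were taken from RefSeq (build GRCm38.p6), as windows of 300 bases from 250 bases before to 50 after a start site, and 6 of the 10 genes matched by gene ID: Ifit1, Ifit2, Ifit3, Rsad2, Oasl1 and Oasl2. The ISRE was searched as GAAANNGAAA, which reads TTTCNNTTTC on the other strand. Of 32851 RefSeq promoters, 1131 (3.44%) held these letters, as did promoters of 3 of the 6 genes, Ifit1, Ifit3 and Rsad2. Their stretches are shown with that of Ifit3b, a near copy of Ifit3, because Ifit1 and Ifit3 differ from Rsad2 in these libraries while all hold the motif. Each runs 5′ to 3′ on the strand of its gene, with the ISRE letters in capitals. The Ifit1 stretch is chr19:34640773-34640825 (plus strand), that of Ifit3 chr19:34583361-34583428 (plus strand), that of Ifit3b chr19:34607757-34607824 (plus strand) and that of Rsad2 chr12:26456551-26456584 (minus strand).
Ifit1: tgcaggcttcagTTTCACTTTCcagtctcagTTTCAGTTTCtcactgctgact
Ifit3: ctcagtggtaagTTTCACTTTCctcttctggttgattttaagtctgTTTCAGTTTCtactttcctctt
Ifit3b: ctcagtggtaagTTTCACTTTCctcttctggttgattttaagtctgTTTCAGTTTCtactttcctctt
Rsad2: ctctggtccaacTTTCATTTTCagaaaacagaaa

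In Ifit1 the matches began 104 and 85 bases before the start site, in Ifit3 156 and 122, and in Rsad2 the only match began 120 bases before it. The start site used for Ifit3 lies 410 bases inside its RefSeq locus, and those of Ifit1 and Rsad2 lie where their loci begin. The windows of Ifit2, Oasl1 and Oasl2 do not hold these letters, which says nothing about binding there. The gamma-activated site, searched as TTCNNNGAA (the same on the other strand), was in 2726 promoters (8.30%) and in 1 window of Ifit2. Among the tested genes with a promoter, 135 of 494 with ISRE letters were at least 2-fold higher in the CKO-labelled library (27.3%), against 1576 of 12438 without them (12.7%). The median log2 ratios of these sets were 0.18 and 0.014. Among the members and 51 other interferon-stimulated genes, 18 of 27 with ISRE letters and 12 of 21 without were at least 2-fold higher. A match is a description of letters, not evidence of a site in use.

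The IFIT proteins recognise foreign RNA by its 5′ end or its structure and block its translation, and their genes lie in a cluster on chromosome 19. Ifit1 (chr19:34640889-34650009) had 90 control reads and 960 in the CKO-labelled library. After scaling this was 7.11-fold higher, with an interval from 5.72 to 8.93, the largest ratio of the IFIT genes among the 10. Ifit2 (chr19:34550550-34576534) had 439 and 2123 reads, and its log2 ratio of 1.69 (interval 1.54 to 1.84) was the lowest among the 9 genes past 2-fold, except for the values as deposited, where Mx1 was lower. Ifit3 (chr19:34583119-34588982) had 272 and 1564 reads, with a log2 ratio of 1.93 (1.75 to 2.13). All IFIT genes of the group were thus higher in the CKO-labelled library, and the intervals of Ifit1 and Ifit3 did not overlap.

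Ifit3 has a near-identical copy, Ifit3b, so that its reads are uncertain. Of the 1646 windows of 100 bases in the longest Ifit3 transcript, 521 (31.7%) also occur in Ifit3b. Ifit3b itself had 260 and 1375 reads, with a log2 ratio of 1.81. As a sum, Ifit3 and Ifit3b had 532 and 2939 reads, at a log2 ratio of 1.88, and a split of shared reads between the copies would leave the sum as it is. Ifit1 shared 3.29% of its windows with other transcripts, and all of these windows occur in Ifit1bl2. In RefSeq the locus of Ifit1bl1 spans Ifit1, and their reads may not be fully apart. Ifit1bl1 had 43 and 92 reads, with a log2 ratio of 0.50 (interval -0.025 to 1.07), while Ifit1bl2, whose locus ends 61 bases before that of Ifit1, had 33 and 106 reads, with a log2 ratio of 1.08 (0.52 to 1.71). The log2 ratios of both were below those of the 3 IFIT effectors, and the interval of Ifit1bl2 overlaps that of Ifit2.

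**Figure D1:**
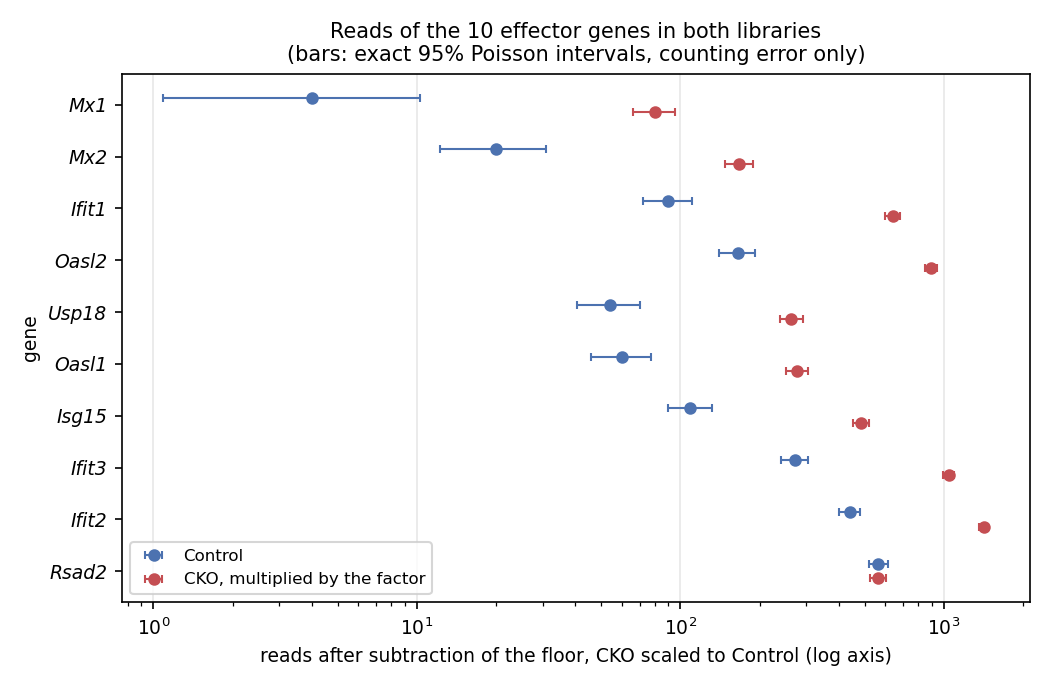
Reads of the 10 effector genes in the control library (blue) and in the CKO-labelled library after multiplication by the scaling factor of 0.667 (red), on a log axis, 1 library per group. Bars are exact 95% Poisson intervals for counting error. The intervals of both libraries are apart for 9 genes and overlap for Rsad2.

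MX proteins are dynamin-like GTPases that trap viral nucleocapsids. C57BL/6 mice are known to carry defective Mx1 and Mx2 alleles, and the RefSeq table lists both genes as transcribed pseudogenes, so the values describe transcripts and not MX protein. Mx1 (chr16:97447035-97462906) had 4 control reads and 120 in the CKO-labelled library, which was 20-fold higher after scaling. Its interval, 7.61 to 74.6, was the widest of the group because of the few control reads, and its log2 ratio of 4.02 ranked 42 from the top of the 17469 genes. Mx2 (chr16:97536081-97560901) had 20 and 251 reads, which was 8.37-fold higher (5.30 to 13.9). The MX genes thus had the lowest levels of the group and, with the floors subtracted and a pseudocount of 1, the highest ratios. The intervals of Mx1 and Mx2 both overlap that of Ifit1. The order of the ratios also depends on the floors and the pseudocount. For the values as deposited, Mx1 was the lowest of the 9 at 2.13 (1.56 when these were scaled) and Ifit1 the highest at 3.02 (2.44), and with a pseudocount of 10 Ifit1 was above Mx1 at 2.68 and Mx2 at 2.56. They share few sequences, with 1.25% of the Mx1 windows in common with Mx2.

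The OAS-like proteins resemble the enzymes that make 2′-5′ oligoadenylates, the activators of RNase L. OASL2 has kept this activity, and OASL1 lacks it and is known to hold back translation of Irf7 mRNA. Oasl2 (chr5:114896926-114912245) had 165 control reads and 1343 in the CKO-labelled library, a log2 ratio of 2.43 (interval 2.21 to 2.68). Oasl1 (chr5:114923143-114937911), beyond Gm13822 on the same chromosome, had 60 and 417 reads, with a log2 ratio of 2.19 (1.82 to 2.63). The intervals of Oasl1 and Oasl2 overlap. Oas2, which makes 2′-5′ oligoadenylates and was the highest of the other interferon-stimulated genes, had 39 and 674 reads, with a log2 ratio of 3.49. For the values as deposited it was at 3.29 and Ifi27l2a was higher at 3.47.

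Isg15 encodes a ubiquitin-like protein that is attached to other proteins, and Usp18 the protease that removes it. Usp18 also blocks signalling at the type I interferon receptor. Isg15 (chr4:156199424-156200818) had 109 control reads and 728 in the CKO-labelled library, and was 4.45-fold higher after scaling (interval 3.64 to 5.50). Usp18 (chr6:121245906-121270917) had 54 and 396 reads and was 4.89-fold higher (3.67 to 6.62). The modifier and its protease were thus higher by ratios that counting error does not separate. The non-coding Gm44148 overlaps the Usp18 locus; it had 21 and 39 reads, fewer than Usp18, and whether counting used strand is not given in the sources used here. The 3 genes that attach ISG15 were at least 2-fold higher as well, beside 13.4% of all genes tested, by less than Isg15. Uba7, the activating enzyme, had 252 and 871 reads, with a log2 ratio of 1.20. Ube2l6, the conjugating enzyme, had 203 and 738 reads and was at 1.27, and Herc6, the main ligase in mice, had 235 and 816 reads and was at 1.21.

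Rsad2 encodes viperin, a radical SAM enzyme of the endoplasmic reticulum and lipid droplets that turns CTP into a chain terminator of viral RNA synthesis. Rsad2 (chr12:26442743-26456452) had 564 reads in the control library, the most of the 10 genes, and 844 in the CKO-labelled library. After scaling the ratio was 0.998, with an interval from 0.896 to 1.11, and the gene ranked 9079 of 17469 by log2 ratio. The log2 ratio was -0.0034, and its sign was not fixed: it was 0.41 with equal totals and 0.58 for the values as deposited. Set against the median of all genes tested, it lay between -0.028 and 0.013 under every scaling tried. A scaling factor nearly cancels in this difference, so these values cannot show that Rsad2 is stable. Its part in the summed reads of the group was 31.7% (29.6% to 34.0%) in the control library and 9.65% (9.04% to 10.3%) in the CKO-labelled library.

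The ratio of any other member can be set against that of Rsad2 without a scaling factor, since the factor cancels. Ifit2, the nearest, had a ratio 3.23 times that of Rsad2 (interval 2.78 to 3.76), and Mx1, the farthest, 20.05 times (7.55 to 75.1). The floors do not cancel: for the values as deposited Mx1 was the nearest at 2.99 times, Ifit2 was at 3.07 and Ifit1 was the farthest at 5.45. The 9 other members thus stood apart from Rsad2 in these libraries by more than counting error, and whether mice differ from each other in this way was not tested. Cmpk2, the neighbour of Rsad2 at 12664 bases, encodes a mitochondrial kinase that feeds the CTP pool and is itself induced by interferon. Cmpk2 had 356 and 711 reads, a log2 ratio of 0.41 (0.23 to 0.60), which was 1.33 times the ratio of Rsad2 (1.13 to 1.58). On the other side Rnf144a had 270 and 320 reads, with a log2 ratio of -0.34, which was 0.079 with equal totals. Both interferon-stimulated genes of this locus were therefore below 2-fold.

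**Figure D2:**
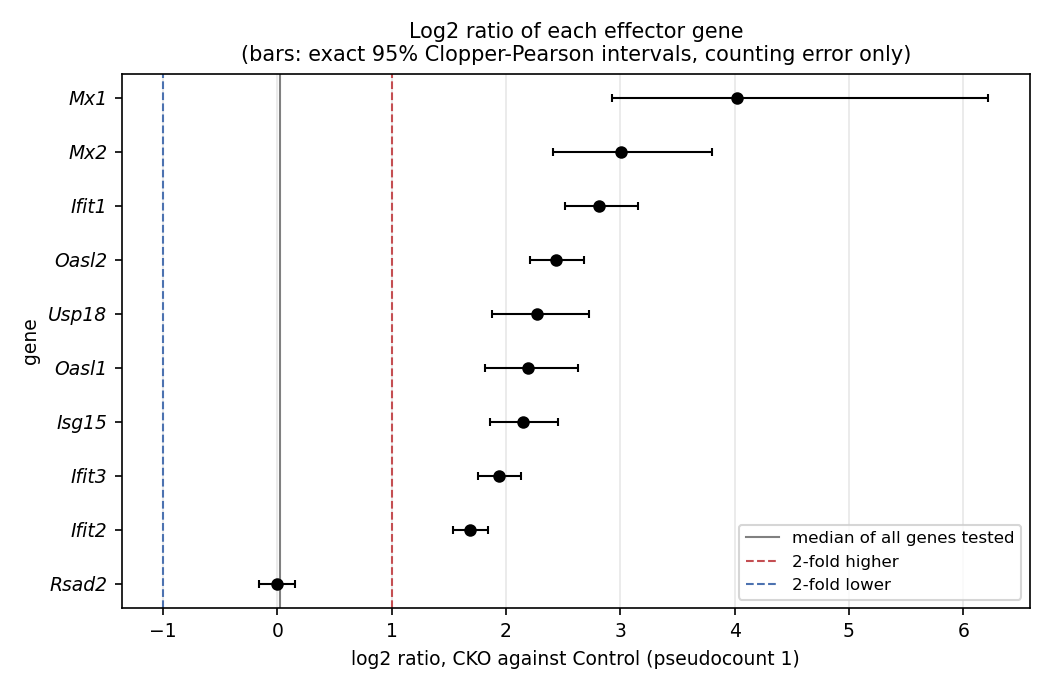
Log2 ratio of each effector gene, CKO against control, with exact 95% Clopper-Pearson intervals for counting error, 1 library per group. The lower ends of the intervals of 9 genes lie at 1.54 or above, right of the dashed line at 2-fold, and Rsad2 lies at the median of all genes tested.

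Levels of different genes were compared as reads per kilobase of exon, as parts per 1000000 of the sum over the 18108 genes with an exon length. In the control library the level was 10.5 for Ifit3, 10.01 for Rsad2 and 9.67 for Isg15, whose Poisson intervals overlap. Ifit2 followed at 7.71, with an interval that overlaps that of Isg15 only, and Oasl2 at 3.54. Ifit1 was at 2.27, Usp18 at 2.05 and Oasl1 at 1.83, and their intervals overlap. Mx2 was at 0.55 and Mx1 at 0.079, and these were the least abundant of the 10. In the CKO-labelled library, Isg15 was at 59.1 and Ifit3 at 55.0, with overlapping intervals, and these were the most abundant of the 10. Ifit2 was at 34.1, Oasl2 at 26.4 and Ifit1 at 22.2, and their intervals did not overlap. Usp18 and Rsad2 were both at 13.7, Oasl1 was at 11.6, Mx2 at 6.36 and Mx1 at 2.18. Apart from Rsad2, which went from position 2 to position 7, and Ifit3 and Isg15, whose intervals overlap in either library, the order of the genes was the same in both libraries.

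**Figure D3:**
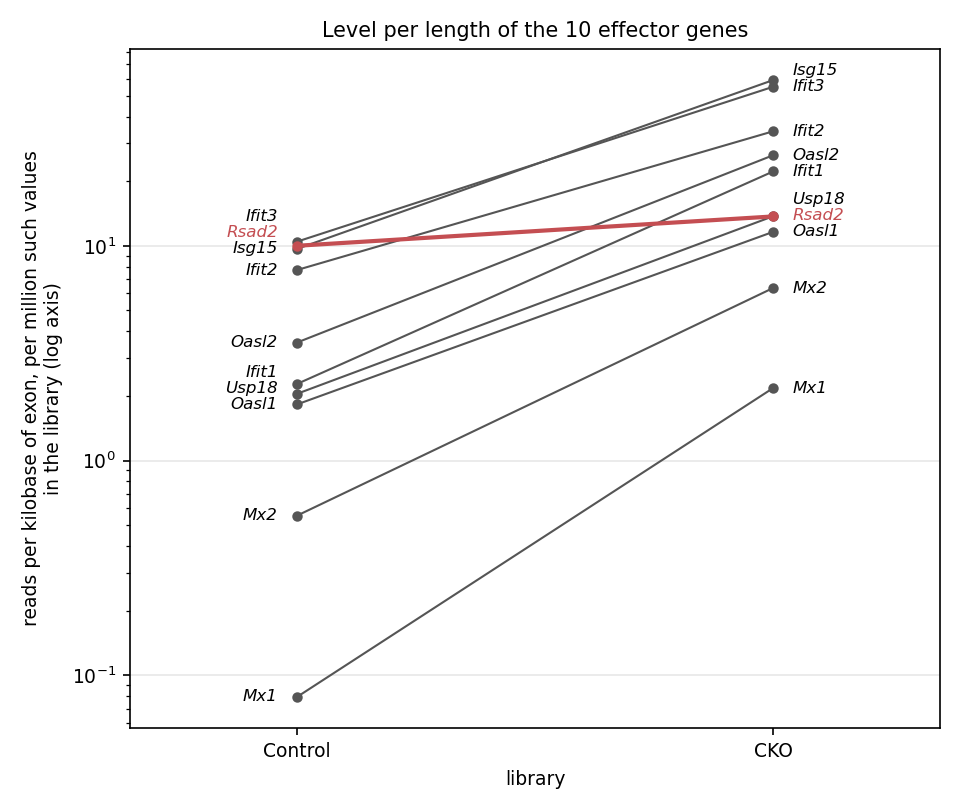
Level of the 10 effector genes per length in the control library and in the CKO-labelled library, in reads per kilobase of exon as parts per 1000000 of their sum, on a log axis. Each line joins the values of 1 gene, 1 library per group. The line of Rsad2 (red), from 10.01 to 13.7, crosses the lines of Isg15, Ifit2, Oasl2, Ifit1 and Usp18.

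Over the whole group, the summed reads were 1777 in the control library and 8746 in the CKO-labelled library, or 45.7 and 200.6 RPM. The median log2 ratio was 2.23, beside 0.022 for all genes tested. Without Rsad2 the summed reads were 1213 and 7902. Most like the median of the group over the 2 libraries, among genes with at least 100 reads in both, were Ier3 at 2.24, H2-DMa at 2.22 and Dock10 at 2.21. Of the nearest genes on either side of the loci, 14 outside the group were tested, with a median log2 ratio of 0.031. At least 2-fold higher was 1 (Ifit1bl2, at 0.64 for the values as deposited and scaled), beside 13.4% of all genes tested. In the other direction 1 was past 2-fold, beside 5.35%. The lower one was Perm1, beside Isg15, with 339 and 205 reads, with a log2 ratio of -1.30 (-0.89 with equal totals, -0.55 for the values as deposited). Agrn, on the other side of Isg15, was at 0.76 (1.18 with equal totals, 1.34 for the values as deposited). With equal totals 2 of the 14 were at least 2-fold higher, beside 21.9% of all genes tested, and 0 lower, beside 437 of 17682 genes. For the values as deposited and scaled 0 were higher, beside 5.98%, and 1 lower, beside 463 of 20002 genes.

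The rest of the pathway was read from lists of genes grouped by role. Of 21 interferon genes listed, only Ifnz was among the genes with values, with 2 control reads and 1 in the CKO-labelled library, too few for a ratio. Ifnb1, Ifng and the others had no values, so their levels in either library are not known. All 6 receptor genes had log2 ratios above 0, and 1 was at least 2-fold higher (16.7%, beside 13.4% of all genes tested). For the values as deposited 2 were, beside 17.9% of all genes tested. Ifnar1 and Ifnar2, the chains of the type I receptor, were at 0.32 and 0.43, and Ifnlr1 and Il10rb, those of the type III receptor, at 0.51 and 0.50. Ifngr1 and Ifngr2, which bind interferon gamma, were at 1.08 and 0.37. With the median of all genes at 0.44 under equal totals and 0.57 for the values as deposited, the receptor median of 0.47 moved to 0.88 and 0.99.

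Of the genes that carry the signal from the receptors, the kinases were below 2-fold and the transcription factors Stat2 and Irf9 above it. Jak1 had 5692 and 8536 reads, with a log2 ratio of -0.00034, which was 0.42 with equal totals. Tyk2 was at 0.27 and Jak2 at 0.40. Stat2 had 529 and 1976 reads, with a log2 ratio of 1.31, and Irf9 had 452 and 1897 and was at 1.48. Irf7, which drives interferon alpha genes and is itself induced by interferon, had 224 and 2595 reads, with a log2 ratio of 2.94.

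Of 15 genes that sense nucleic acids or pass on that signal, 9 were at least 2-fold higher (11 with equal totals). This was beside 13.4% of all genes tested (21.9% with equal totals), and the median of the 15 was 1.39. Tlr9, a receptor for DNA in endosomes, was the highest, with 7 and 137 reads, with a log2 ratio of 3.53. For the values as deposited it was at 2.16 (1.59 when these were scaled), where Zbp1 was higher at 2.62 (2.05). Mavs, the mitochondrial adaptor of the RNA sensors and the most abundant by reads over both libraries, was at 0.050. Trim25, a ubiquitin ligase that activates the RNA sensor RIG-I, was the lowest at -0.35 and became 0.066 with equal totals.

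The 51 other interferon-stimulated genes had a median of 1.27. Upward 34 were past 2-fold, beside 13.4% of all genes tested, and downward 0, beside 5.35%. Under the other scalings the number upward was between 29 and 42. It was 29 for the values as deposited and scaled, beside 5.98% of all genes tested, and 42 for the values as deposited, beside 17.9%. Lgals3bp, a secreted glycoprotein and the most abundant by reads, had 1213 and 9273 reads, with a log2 ratio of 2.35. Rsad2 was not alone near 0: of the 61 members and other interferon-stimulated genes, 12 lay within 1.5-fold, of which 11 were from the other list. Most of all 17469 genes tested lay within 1.5-fold, with 3801 higher and 2423 lower by at least that much. With equal totals 6 of the 61 did, and for the values as deposited 4. The numbers of all genes within 1.5-fold were not taken under these scalings. Of the 61 genes, those nearest to Rsad2, named after their values were seen, were Shisa5 at -0.071, Tdrd7 at -0.13, Pnpt1 at -0.13, Isg20 at 0.13 and Znfx1 at 0.13. The negative ratios among these became positive with equal totals, with 0.29 for Pnpt1, the lowest of the list. By level per length in the control library, Shisa5 was at 100.8, Pnpt1 at 28.7, Znfx1 at 22.9, Tdrd7 at 21.9 and Isg20 at 3.96, beside 10.01 for Rsad2.

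Of 11 negative regulators of the pathway, 2 were at least 2-fold higher (18.2%, beside 13.4% of all genes tested), with a median of 0.16. With equal totals 4 were, beside 21.9% of all genes tested, with a median of 0.58. For the values as deposited 4 were, beside 17.9%, with a median of 0.74, and when these were scaled 1 was, beside 5.98%. Socs3, an inhibitor of JAK kinases that is also induced by interleukin 6, was the highest, with 84 and 1479 reads, with a log2 ratio of 3.54. Adar, which edits double-stranded RNA and hides it from sensors, was the most abundant by reads and was at 0.61 (1.03 with equal totals). Rnaseh2c, a subunit of ribonuclease H2, was the lowest at -0.45 and became 0.15 for the values as deposited. Usp18, a member described above, also acts as a negative regulator and was at 2.27.

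Interferon gamma has its own receptor and induces large GTPases that attack the vacuoles of parasites and bacteria. The list of 16 genes holds 15 GTPases and Ciita, the activator of MHC class II genes. Of the 16, 14 were at least 2-fold higher, beside 13.4% of all genes tested, with a median of 2.23. Without Ciita 13 of 15 were, with a median of 2.09. They ranged from 0.11 for Gbp8 to 3.06 for Tgtp1, and Irgm1 was the most abundant by reads. All 4 interferon-inducible chemokine genes were at least 2-fold higher, beside the same 13.4%, with a median of 2.86 (1.61 for the values as deposited and scaled). Cxcl10, which attracts activated T cells, had 40 and 595 reads, with a log2 ratio of 3.28, and Cxcl9 had 29 and 160 reads and was at 1.84. Interferon proteins were not measured.

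**Figure D4:**
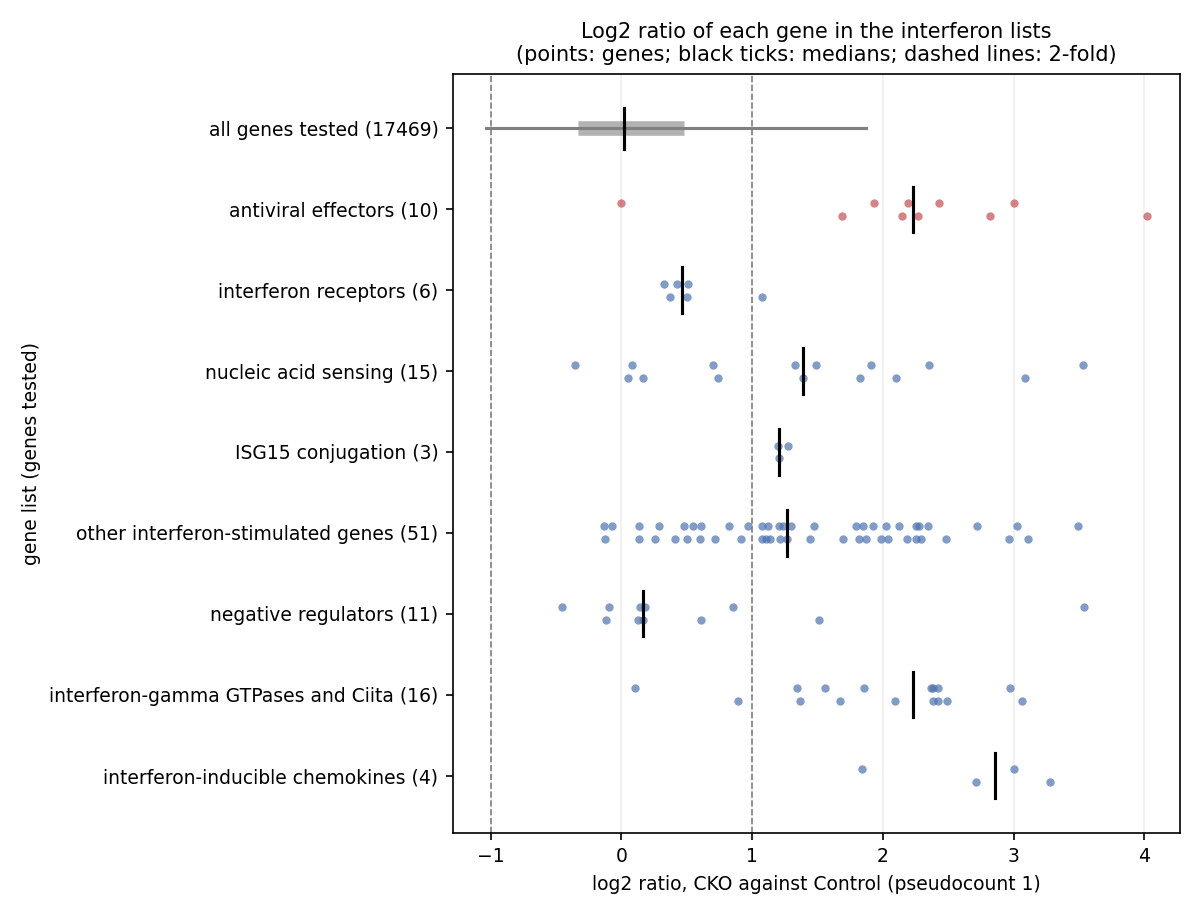
Log2 ratio of each tested gene in the antiviral effectors (red) and in 7 other interferon lists (blue), CKO against control, 1 library per group. Black ticks are medians and dashed lines mark 2-fold. For all 17469 genes tested, the grey line runs from percentile 5 (-1.04) to percentile 95 (1.87) and the grey bar from percentile 25 to percentile 75. The median of the effectors is 2.23, that of the interferon-gamma GTPases with Ciita is 2.23 (2.09 without Ciita), and those of the receptors and negative regulators are below 0.5.

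Markers of leukocytes, which also express interferon-stimulated genes, differed between the libraries as well. Beside the counts that follow, 13.4% of all genes tested were at least 2-fold higher. That share was 21.9% with equal totals and 5.98% for the values as deposited and scaled. Of 8 macrophage markers, 7 were at least 2-fold higher in the CKO-labelled library, with a median log2 ratio of 2.61, and their summed level was 99.0 RPM in the control library and 589 in the CKO-labelled library. Lyz2, the lysozyme of macrophages and neutrophils and the highest and most abundant by reads, had 518 and 9836 reads, while Csf1r, the receptor for macrophage growth factor, was the lowest at 0.51. Of 3 monocyte markers, 2 were at least 2-fold higher, with a median of 2.74, the sum went from 14.9 to 121 RPM, and Plac8 was the most abundant by reads, with Ccr2 the highest at 3.51 and Ly6c2 the lowest at 0.32. Of 5 T cell markers, 5 were at least 2-fold higher, with a median of 1.99, from a sum of 1.21 to 7.0 RPM. Cd3g was the most abundant by reads, Cd4 was the lowest at 1.70, and Cd5, the highest at 2.72, had 3 reads in the control library, the only marker at 3 or fewer. For the values as deposited and scaled, 1 of the 5 was past 2-fold. The 3 neutrophil markers, of which 2 were past 2-fold with a median of 1.64, summed to 1.08 and 5.96 RPM, with Csf3r the most abundant and the highest at 2.37 and S100a8 the lowest at 0.77. With equal totals 3 were past 2-fold, with a median of 2.05, and for the values as deposited and scaled 1, with a median of 0.69.

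Plasmacytoid dendritic cells are the main makers of interferon alpha. Of 4 markers, 2 were at least 2-fold higher, beside 13.4% of all genes tested, and 1 was at least 2-fold lower, beside 5.35%. The median was 0.81. For the values as deposited 1 was at least 2-fold higher, beside 17.9% of all genes tested. When these were scaled 0 were, beside 5.98%, with a median of 0.30. Siglech, the highest, had 13 and 60 reads, with a log2 ratio of 1.55 (0.64 for the values as deposited and scaled), and Cox6a2 had 33 and 23 reads and was at -1.06 (0.12 for the values as deposited). Their summed level of 24.2 and 39.5 RPM was mostly Tcf4, which other cells express too. The 2 natural killer cell markers tested (Ncr1 at -0.46 and Gzma at -0.88), with a median of -0.67 (0.36 for the values as deposited), and the B cell marker Cd79b, at 0.21, were not past 2-fold, with sums of 0.85 and 0.59 RPM in the control library and 0.69 and 0.92 RPM in the CKO-labelled library. Of the 6 endothelial markers 0 were past 2-fold in either direction, beside 13.4% of all genes tested upward and 5.35% downward. Their log2 ratios ran from -0.67 for Kdr to 0.14 for Emcn, with a median of -0.13 that became 0.29 with equal totals, and Plvap was the most abundant by reads. What part leukocytes have in the values of the effectors was not tested. Which cells of the kidney held the effector transcripts was not measured.

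**Figure D5:**
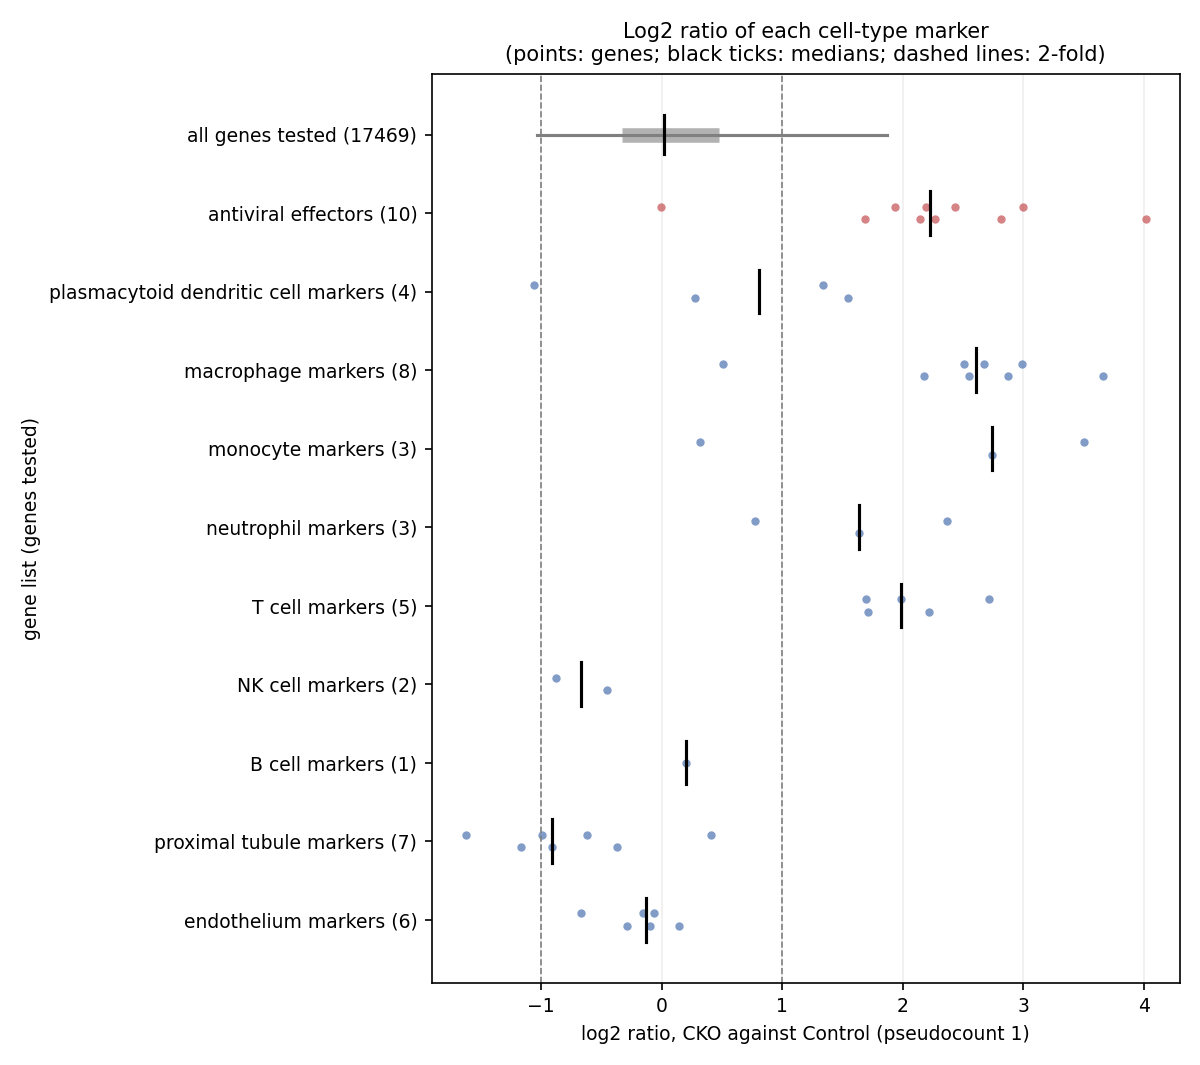
Log2 ratio of each tested cell-type marker (blue) beside the antiviral effectors (red), CKO against control, 1 library per group. Black ticks are medians, dashed lines mark 2-fold, and the grey line and bar give percentiles 5 to 95 and 25 to 75 of all 17469 genes tested. Macrophage, monocyte and T cell medians lie between 1.99 and 2.74, and the proximal tubule median lies at -0.91.

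Of the genes used as checks, Lcn2, which encodes the tubular injury marker NGAL, had 28 control reads and 3797 in the CKO-labelled library, and Havcr1, which encodes the injury marker KIM-1, had 1639 and 21332. Both exceeded the median of the effectors in log2 ratio, with 6.45 and 3.12. Gapdh, a glycolytic enzyme often used as a reference, was at -0.68 (-0.26 with equal totals, -0.096 for the values as deposited).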

How the data were processed

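RNA was sequenced from kidney in 1 control and 1 CKO library. Per the submitters' processing notes and the study's methods, reads were aligned to mm10 with STAR 2.7.3a, counted with HTSeq and normalized with DESeq2. The methods name Cufflinks 2.2.1 for estimates of expression level and FastQC for read quality, and edgeR is named without a role. The deposited values have the unit score, as whole numbers that the authors normalized and call normalized counts, with a lowest value of 35 and 51. They were read here as reads plus a constant per library, an inference. Each column's minimum minus 1 was subtracted, CKO reads were scaled by the median gene ratio (0.667), and log2 ratios used a pseudocount of 1. Genes that reached 10 scaled reads in either library were set against a threshold of 2-fold. No test between groups was possible. Intervals had no pseudocount. Exon lengths came from GENCODE M21, matched by symbol, and 19959 of 20002 genes matched RefSeq by gene ID. Genes named were all members, the highest, lowest and most abundant gene of each list, every receptor, kinase, ISG15 conjugation and check gene, the Ifit3b, Ifit1bl1, Ifit1bl2, Cmpk2, Stat2, Irf9, Irf7, Ifnb1, Ifng and Cxcl10 genes, the nearest neighbours, and the 3 genes most like the median. Shisa5, Tdrd7, Isg20, Znfx1, Gm44148, Zbp1 and Ifi27l2a were added after their values were seen. Some genes of the signalling and regulatory factor lists are not reported here, nor are the summaries of these lists. Members and lists were chosen with earlier results of these data known. Alternatives were other scalings, a pseudocount of 0.1 or 10, a filter at 50 scaled reads or none, and thresholds of 1.5-fold and 4-fold. Steps were tested on simulated data. Python 3.11.15, numpy 2.4.6, pandas 2.3.3, scipy 1.17.1 and matplotlib 3.10.9 were used.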

Additional observations from a re-analysis of the deposited data

How the results depend on the processing

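Of the 10 effectors, 9 were at least 2-fold higher under each alternative scaling, pseudocount and filter and at 1.5-fold. At 4-fold 7 were, but 9 when totals were made equal, 9 for the deposited values unscaled and 2 for these values scaled. No paired analysis was possible because the groups hold 1 library each. The median log2 ratio of the members was set against the medians of the lower and upper interval limits of the single genes. These are not an interval of the median itself. It left that range in 1 setting, 1.79 with the values as deposited and scaled by the median gene ratio, and was 2.65 with equal totals. The numbers of genes higher and lower were 3574 and 131 with the values as deposited (96.5% higher), 1196 and 463 when these were scaled, and 3870 and 437 with equal totals, beside 2334 and 934 in the setting used. At 1.5-fold 3801 genes were higher and 2423 lower, and at 4-fold 749 and 166, as the thresholds themselves bring about, and a filter of at least 50 scaled reads left 617 lower, from fewer genes tested. Of the log2 ratios of single members under the alternatives, 63 stayed within the counting interval of the setting used and 17 left it. Of these 17, 2 were of Rsad2 and 15 of other members, which all stayed at least 2-fold higher. Rsad2 ranged from -0.025 to 0.58 and Mx1, with 4 control reads, from 1.56 to 4.43. The cause, apart from the scale itself, was not tested. Subtracting the column minimum itself, an alternative chosen after seeing the data, gave 2.23 for the median and 4.31 for Mx1. Depth limits genes with few control reads, among them Mx1, Mx2, Tlr9, the neutrophil and T cell markers and the plasmacytoid dendritic cell markers other than Tcf4.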
